A study of Mus musculus with 6 samples.

Results

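The endoplasmic reticulum (ER) chaperones and the integrated stress response were followed here through 10 genes, taken by gene name from the expression tables, which list 14002 genes per liver. The 6 genes of the chaperone arm were Hspa5, Hsp90b1, Pdia4, Dnajb9, Herpud1 and Xbp1. The 4 genes of the Atf4 arm were Atf4, Ddit3, Asns and Trib3. All 10 were found, and all 10 passed the filter on low values.

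Unfolded proteins in the ER activate 3 sensors. Ire1 (gene Ern1) splices the Xbp1 messenger and Atf6 is cleaved to a transcription factor, and both raise chaperones and the degradation machinery. Perk (gene Eif2ak3) phosphorylates eIF2α, which slows translation while favouring translation of Atf4. Other eIF2α kinases sense amino acid shortage, heme or viral RNA, so Atf4 and its targets form an integrated stress response that can move apart from the chaperones. Hepatocytes secrete most plasma proteins, and their chaperone genes are therefore highly expressed. Splicing of Xbp1 and translation of Atf4 are not seen in a gene-level messenger signal.

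Livers came from 3 C57BL/6 mice with a hepatocyte knockout of let7b/c2, a pair of let-7 microRNA genes (LKO) and from 3 wild type C57BL/6 mice (WT). The labels give the age of all 6 as 8 weeks and the diet as a 60% high-fat diet for 8 weeks, so both groups share the diet and no liver on another diet was analysed here. The sources used here do not give the promoter that drives the knockout, nor whether WT mice carry any part of the knockout system. Each library holds RNA of the whole liver, including the cells that keep both microRNAs, and the p-values measure the spread between these 6 livers. The preparation selects polyadenylated messengers, so the knocked-out mature microRNAs were not measured and the knockout was not checked at them.

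Estimated counts ranged from 8636681 to 10764825 in LKO libraries and from 8549483 to 10398390 in WT libraries. The top 10 genes took 24.2% of all signal in LKO replicate 2 and 18.7% to 21.0% in each remaining library. Hepatocyte markers were abundant in every liver, with summed signals of 146834 to 213295 in LKO and 150617 to 183379 in WT over 10 genes. Kupffer cell and macrophage markers had summed signals of 209 to 304 in LKO and 139 to 157 in WT over 12 genes. Of these 12, 5 were called higher in LKO by limma, or 41.7%, against 1.82% of all genes tested. Sinusoidal endothelial markers had sums of 143 to 163 in LKO and 114 to 131 in WT over 8 genes. The 13 mitochondrially encoded transcripts had a median log2 fold change of -0.31, with all 13 values negative. The part of cell makeup and of mitochondrial transcripts in the results that follow was not tested.

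Chaperone genes are switched on through the ER stress element, the letters CCAAT, then any 9 bases, then CCACG, and Atf4 works through amino acid response elements, here TGATG, then any base, then AA. Both were searched on both strands of RefSeq promoter windows (GRCm38.p6, 250 bases before to 50 after each start). The stretches shown are those that held either element among the 10 members, and sequence was not used to choose the members. Capitals mark the matched letters, and a motif on the other strand reads as its reverse complement.
Hspa5, chr2:34772010-34772058, plus strand: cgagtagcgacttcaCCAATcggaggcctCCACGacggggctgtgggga
Hsp90b1, chr10:86705523-86705666, minus strand: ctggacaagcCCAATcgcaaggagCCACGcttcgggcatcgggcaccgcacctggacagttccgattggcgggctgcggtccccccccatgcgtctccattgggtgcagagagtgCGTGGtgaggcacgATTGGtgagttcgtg
Herpud1, chr8:94386302-94386339, plus strand: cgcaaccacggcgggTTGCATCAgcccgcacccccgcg
Asns, chr6:7693210-7693247, minus strand: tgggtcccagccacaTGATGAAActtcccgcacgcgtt
Trib3, chr2:152344024-152344061, minus strand: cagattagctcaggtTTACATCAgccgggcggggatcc

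The complete ER stress element was present in 2 of 6 chaperone-arm windows, once in Hspa5 and 2 times in Hsp90b1, and in 0 of 4 Atf4-arm windows. It was present in 37 of all 27025 genes with a RefSeq promoter window, or 0.137%. The amino acid response element was found in 2 of 4 Atf4-arm windows, Asns and Trib3, and in 1 of 6 chaperone-arm windows, that of Herpud1. It was present in 4.51% of all genes with a window. The unfolded protein response element TGACGTG was found in Hspa5 alone among the 10, and in 2.22% of all genes with a window. The windows of Pdia4, Dnajb9, Xbp1, Atf4 and Ddit3 held none of the 3 motifs. Only the spacing of 9 bases was searched for the ER stress element, so forms with another spacing are not counted. In the Herpud1 window the letters ATTGG, the reverse complement of CCAAT, stand 1 base before CCACG. The shorter CCACG, which is part of the ER stress element, was found in 5 of 6 chaperone-arm and 2 of 4 Atf4-arm windows and in 35.5% of all genes with a window. A match describes letters, and whether a factor binds there was not measured.

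No member passed the test between LKO and WT livers. Limma called 0 of 10 higher and 0 of 10 lower at an adjusted p under 0.05. Over all 11168 genes tested 1.82% were called higher and 1.69% lower, or 3.51% in either direction. The other tool run, limma-voom on estimated counts, also called 0. At an unadjusted p under 0.05 there were 3 members, Pdia4, Atf4 and Asns, where 18.4% of all genes tested reached it. The 3 LKO values lay apart from the 3 WT values in 1 member, Atf4, against 24.2% of all genes tested. In bulk liver, fewer cells of a type and less RNA per cell cannot be told apart.

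**Figure D1:**
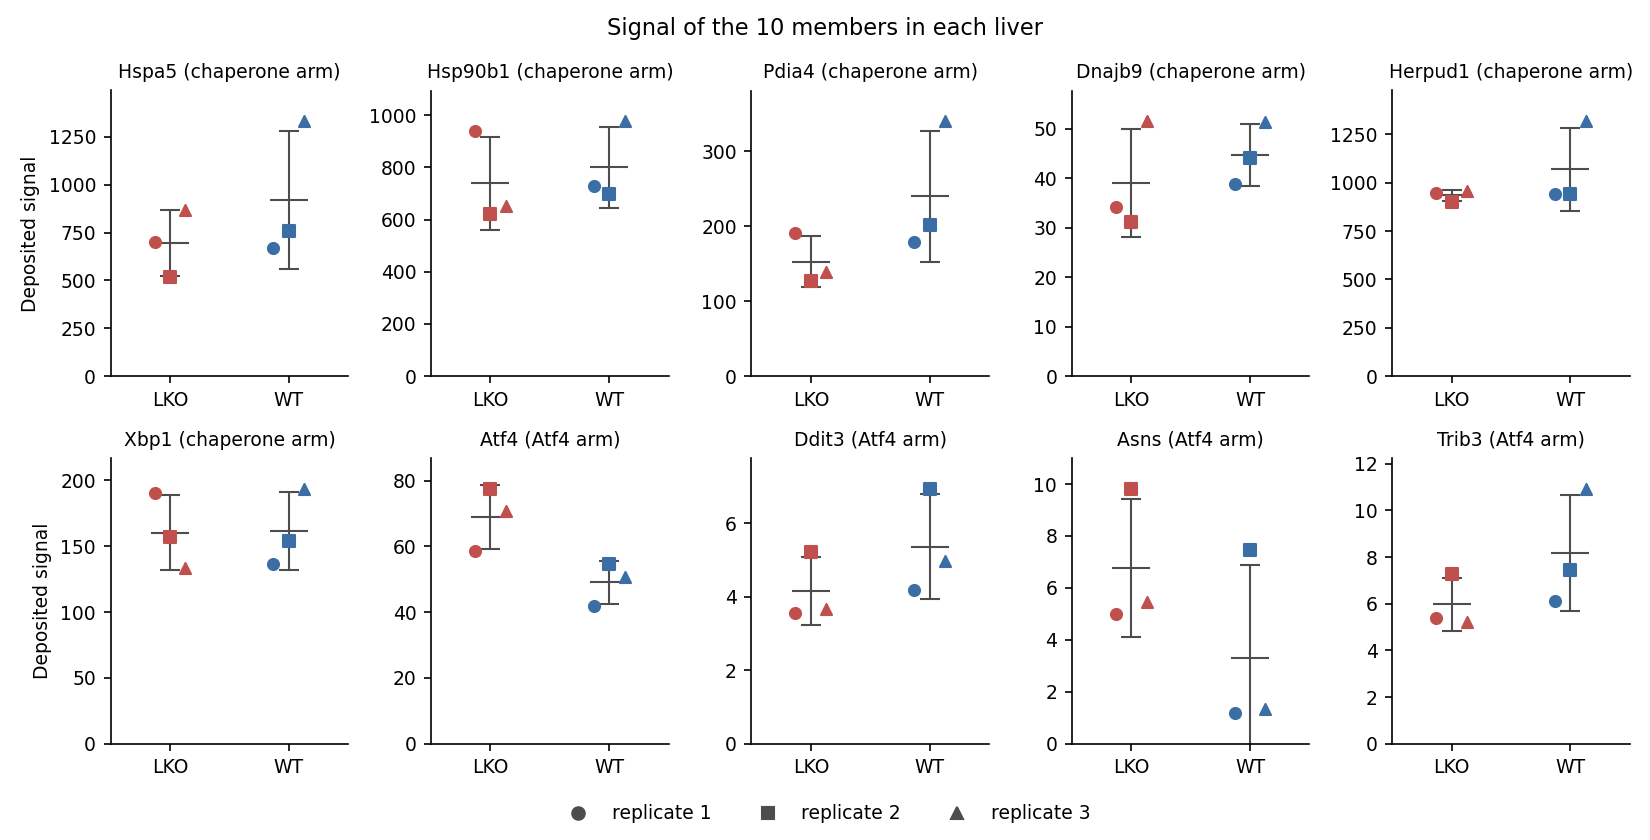
Deposited signal (y axis, linear, from 0) of each member in LKO and WT livers. Symbols are single livers, the long line is the mean and the bars are the SD (n = 3 per group). Only the Atf4 panel shows no overlap, at 58.6 to 77.6 in LKO and 41.9 to 54.8 in WT, and WT replicate 3 is the highest liver in 5 of the 6 chaperone-arm panels.

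Per kilobase of annotated exon (GENCODE M21), the levels in both groups ran from Herpud1 at the top to the Atf4-induced genes at the bottom. Herpud1 had a mean signal per kilobase of 401 ± 13.0 in LKO and 458 ± 92.8 in WT (SD, n = 3 each). Hspa5 had 164 ± 41.3 per kilobase in LKO and 218 ± 84.9 in WT, and Hsp90b1 had 183 ± 43.8 in LKO and 198 ± 38.2 in WT, so this pair did not differ beyond its spread. Pdia4, Xbp1, Atf4 and Dnajb9 followed, with WT means per kilobase of 100.2, 49.7, 20.8 and 17.6. Trib3, Ddit3 and Asns were lowest, with LKO means of 2.81, 2.42 and 2.47 per kilobase and WT means of 3.84, 3.13 and 1.21, and their order is not resolved by the spread. All further signals are per gene, without division by length.

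Hspa5 encodes BiP, the Hsp70 chaperone of the ER lumen that also holds the sensors inactive (chromosome 2, 34771970 to 34777547, GRCm38). Its signal was 699, 519 and 868 in LKO replicates 1, 2 and 3, against 671, 757 and 1332 in WT replicates 1, 2 and 3. The groups overlapped, and WT replicate 3 stood above the other 5 livers. The log2 fold change was -0.37 (SE 0.26, 95% interval -0.95 to 0.22, adjusted p in limma 0.498).

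Hsp90b1 encodes Grp94, the Hsp90 chaperone of the ER (chromosome 10, 86690209 to 86705509). It overlaps a pseudogene on the other strand, as Herpud1 overlaps an antisense gene and Dnajb9 a microRNA gene. Reads from both strands may be mixed in these genes, because no source used here states the strand setting of the counting. Its signal was 941, 620 and 654 in LKO livers, against 727, 696 and 977 in WT livers. The highest liver of each group was almost level with that of the other, and the log2 fold change was -0.12 (SE 0.19, 95% interval -0.55 to 0.30, adjusted p in limma 0.775).

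Pdia4 encodes a protein disulfide isomerase, which forms and rearranges disulfide bonds in the ER (chromosome 6, 47796141 to 47813430). Its signal was 192, 128 and 139 in LKO livers, against 179, 202 and 340 in WT livers. LKO replicates 2 and 3 lay below all WT livers, while LKO replicate 1 lay between WT replicates 1 and 2. Its log2 fold change of -0.62 (SE 0.23, 95% interval -1.14 to -0.09) was the lowest of the 10, with an adjusted p in limma of 0.198. Without WT replicate 3 it was -0.34, and over the fits that left out a liver it ran from -0.80 to -0.34.

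Dnajb9 encodes ERdj4, a co-chaperone of BiP that is induced through Xbp1 (chromosome 12, 44205559 to 44210326). Its signal was 34.3, 31.3 and 51.6 in LKO livers, against 38.9, 44.0 and 51.4 in WT livers. LKO replicate 3 reached the level of the highest WT liver, and the log2 fold change was -0.22 (SE 0.19, 95% interval -0.64 to 0.20, adjusted p in limma 0.58).

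Herpud1 encodes an ER membrane protein of the degradation machinery (chromosome 8, 94386438 to 94395377). Its signal was 947, 900 and 957 in LKO livers, against 944, 944 and 1319 in WT livers. Apart from WT replicate 3, all livers lay within 900 to 957, and the log2 fold change was -0.17 (SE 0.15, 95% interval -0.52 to 0.17, adjusted p in limma 0.585).

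Xbp1, the transcription factor of the Ire1 branch (chromosome 11, 5520659 to 5525893), had signals of 190, 157 and 134 in LKO livers, against 136, 154 and 194 in WT livers. The ranges nearly coincided. The log2 fold change was -0.01 (SE 0.16, 95% interval -0.37 to 0.36, adjusted p in limma 0.989), and the interval reaches about as far below 0 as above it.

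In all 6 chaperone-arm genes the WT livers differed among themselves by more than the group means did. Their highest signal was 1.32 to 1.98 times their lowest, while the LKO mean was 0.635 to 0.994 times the WT mean. WT replicate 3 was above both other WT livers in 6 of 6 chaperone-arm genes, against 33.8% of all genes tested, and it was the highest of the 6 livers in 5 of them, against 17.8% of all genes tested. Its signal was 1.86 times the mean of the other WT livers for Hspa5, 1.79 times for Pdia4 and 1.24 times for Dnajb9, the smallest excess of the arm. LKO replicate 2 was the lowest liver in 5 of 6 chaperone-arm genes, against 21.3% of all genes tested. This pattern was noticed in the values and was not tested.

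Much of the difference between genotypes in this arm depended on WT replicate 3. The median log2 fold change of the 6 genes was -0.20 with all livers and -0.04 without that library. Without it Pdia4 had -0.34, Dnajb9 -0.12, Hspa5 -0.07 and Herpud1 -0.01, while Hsp90b1 turned to 0.03 and Xbp1 to 0.13. Without LKO replicate 2 the median was -0.11, and in the remaining fits with a liver left out it was -0.31 to -0.24. Over all genes tested the median was -0.002, with the middle 50% between -0.19 and 0.19.

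**Figure D2:**
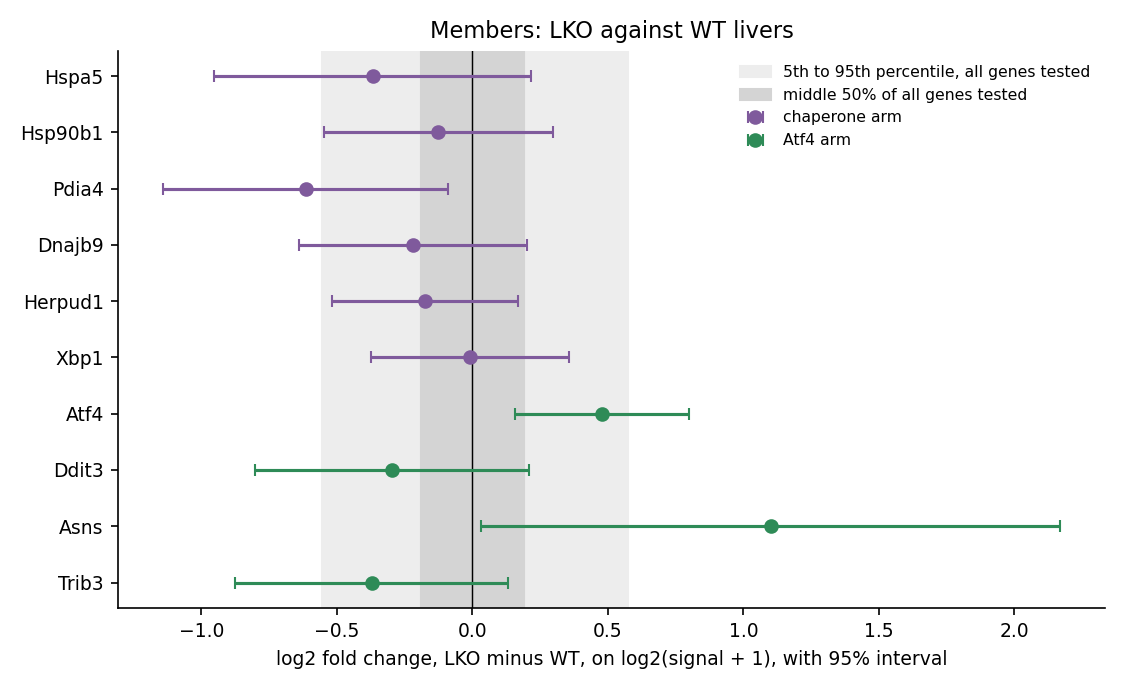
Log2 fold change of each member, LKO minus WT, on the log2(signal + 1) scale (x axis), with limma's 95% interval. The darker band holds the middle 50% of all genes tested, -0.19 to 0.19, and the lighter band the 5th to 95th percentile, -0.56 to 0.58. Intervals of Pdia4, Atf4 and Asns exclude 0 before adjustment, and none of the 10 passed after it.

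In the Atf4 arm, the transcription factor gene and 1 of its targets had higher means in LKO livers, and the other members had lower means. Atf4 (chromosome 15, 80255184 to 80257541) had signals of 58.6, 77.6 and 70.6 in LKO livers, against 41.9, 54.8 and 50.6 in WT livers. The lowest LKO liver was above the highest WT liver. The group means were 68.9 ± 9.61 in LKO and 49.1 ± 6.54 in WT (SD, n = 3 each), a log2 fold change of 0.48 (SE 0.14, 95% interval 0.16 to 0.80). Its adjusted p in limma was 0.107 and stayed between 0.0535 and 0.289 over 15 alternatives, so the difference did not pass the threshold under any of them.

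Asns encodes asparagine synthetase, a textbook target of Atf4 under amino acid shortage (chromosome 6, 7675169 to 7693254). Its signal was 5.01, 9.82 and 5.46 in LKO livers, against 1.17, 7.44 and 1.33 in WT livers. WT replicate 2 lay among the LKO livers, and the other WT livers were far below all of them. The gap inside the WT group was larger than counting error, since WT replicates 1 and 3 held 9 and 12 estimated reads, with exact Poisson 95% intervals of 4.12 to 17.1 and 6.20 to 21.0, and WT replicate 2 held 59, with 44.9 to 76.1. LKO replicates 1, 2 and 3 held 38, 66 and 49 reads. The log2 fold change was 1.10 (SE 0.48, adjusted p in limma 0.255), with a 95% interval that begins at 0.03. Without WT replicate 2 it was 1.74, with an adjusted p in limma of 0.0331, so this library decides the call. Over the 15 alternatives the adjusted p ran from 0.0331 to 0.523.

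Ddit3 encodes CHOP, a transcription factor linked to cell death in prolonged stress (chromosome 10, 127290774 to 127296288). Its signal was 3.56, 5.21 and 3.68 in LKO livers, against 4.17, 6.94 and 4.97 in WT livers. The groups overlapped at 27 to 35 estimated reads in LKO and 32 to 55 in WT, with exact Poisson 95% intervals that span 17.8 to 48.7 reads in LKO and 21.9 to 71.6 in WT. The log2 fold change was -0.30 (SE 0.23, 95% interval -0.80 to 0.21, adjusted p in limma 0.532). Mars, a tRNA synthetase gene, overlaps Ddit3 on the other strand, and had means of 74.1 in LKO and 70.3 in WT. Gm4189 also overlaps it on the other strand. GENCODE M21 lists another protein-coding gene of the name Ddit3 that overlaps it on the same strand. How reads were divided between these genes was not tested.

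Trib3 encodes a pseudokinase that is induced by Atf4 and CHOP and restrains insulin signalling in liver (chromosome 2, 152337422 to 152344032). Its signal was 5.41, 7.29 and 5.24 in LKO livers, against 6.12, 7.44 and 10.9 in WT livers. WT replicate 3 was again the highest liver, and the groups overlapped. The log2 fold change was -0.37 (SE 0.23, 95% interval -0.88 to 0.13, adjusted p in limma 0.422), and without WT replicate 3 it was -0.16.

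Set against each other, the arms had medians of opposite sign, with overlap between the livers of the genotypes. The median log2 fold change was -0.20 over the 6 chaperone-arm genes and 0.09 over the 4 Atf4-arm genes, a difference of -0.29. The Atf4-arm median joins members of opposite sign, from -0.37 for Trib3 to 1.10 for Asns, and it turned to -0.02 without LKO replicate 2 and -0.03 without WT replicate 1. The difference between the arms kept its sign in all 6 fits that left out a liver, between -0.46 and -0.09. For each liver, the median deviation from the WT mean was taken in each arm. The chaperone-minus-Atf4 difference of these medians was -0.11, -0.75 and -0.25 in LKO replicates 1, 2 and 3, against 0.10, -0.43 and 0.32 in WT replicates 1, 2 and 3. WT replicate 2 lay among the LKO livers on this measure, and the groups overlapped. No p is given for these scores.

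**Figure D3:**
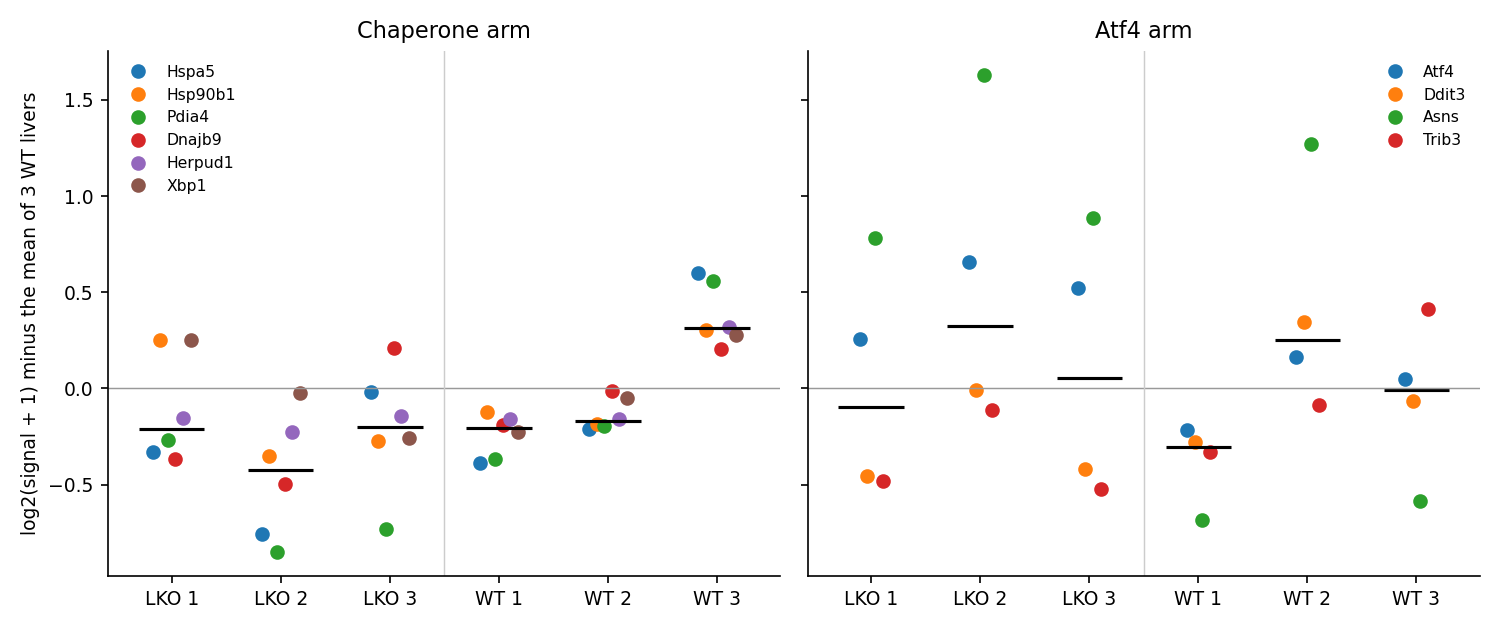
Deviation of each member from the mean of the 3 WT livers on log2(signal + 1) (y axis), by liver (x axis), for the chaperone arm and the Atf4 arm. Black lines are the arm's median in that liver. The chaperone arm's median is 0.31 in WT replicate 3 and between -0.42 and -0.17 in the other 5 livers, and the Atf4 arm's medians, 0.32 in LKO replicate 2 and 0.25 in WT replicate 2 at the top, do not follow the genotype.

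The other genes of these pathways were read from 7 lists with 160 tested genes, of which 3 were called higher and 1 lower in LKO by limma, 2.5% against 3.51% of all genes tested. Limma-voom called 3 of them, Fkbp11, Slc38a2 and Qars. Their joint median log2 fold change was 0.004. The lists covered chaperones, degradation, sensors, secretion, Atf4 targets, tRNA synthetases and the chaperones of other compartments.

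Of 26 other ER chaperones and folding enzymes 1 rose in LKO, 0 fell and 25 did not pass, with a median of -0.13. That is 3.8% called, against 3.51% of all genes tested. The gene that rose was Fkbp11, which encodes a peptidyl-prolyl isomerase of the secretory pathway. Its signal was 16.5, 21.9 and 18.6 in LKO livers, against 5.86, 6.81 and 3.20 in WT livers. The groups did not overlap, as for 24.2% of all genes tested. Its log2 fold change was 1.71 (SE 0.24, adjusted p in limma 0.00568), and it was called under all 15 alternatives. The summed signal of the B and plasma cell markers, nearly all from Sdc1, was 189 to 276 in LKO and 272 to 339 in WT. Of that list's markers, Mzb1 was listed at 0.132, 0.298 and 0.223 in LKO and 0.13, 0 and 0 in WT, and Jchain at 0.149 to 1.58 in LKO and 0.252 to 0.911 in WT. The sums of the Kupffer cell markers, given above, were above WT in each LKO liver, and the part of either list in this result was not tested.

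In this list too WT replicate 3 was often the highest liver, in 12 of 26 genes or 46.2%, against 17.8% of all genes tested. LKO replicate 2 was the lowest in 11 of 26, or 42.3%, against 21.3%. Manf, which encodes a secreted ER stress-inducible protein, had signals of 55.9, 29.9 and 89.6 in LKO livers, against 52.9, 66.1 and 135 in WT livers. Hyou1, an ER chaperone of the Hsp110 kind, had 182, 113 and 232 in LKO livers, against 162, 156 and 349 in WT livers. Both were named after their values were seen, and neither was called (adjusted p in limma 0.514 and 0.677).

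The genes with the complete ER stress element in their window were set apart after values were seen. Of 15 tested, which include Hspa5 and Hsp90b1, 0 were called in limma and 1, Hnrnpa3, had an unadjusted p under 0.05. Over all genes tested 3.51% were called and 18.4% reached that unadjusted p. In these 15 genes 12 had a negative log2 fold change, against 5611 of all 11168 genes tested. WT replicate 3 was the highest liver in 9 of the 15, or 60.0%, against 17.8% of all genes tested. Of these 15, 7 belong to the chaperone arm or the list of other chaperones. In 6 of those 7 WT replicate 3 was highest, against 3 of the other 8. Those other 8 include Syvn1 and Derl3 of the degradation list, and Syvn1 is 1 of the 3. Of 231 tested genes with the amino acid response element, 2 were called higher and 3 lower by limma, with a median of -0.004. The shares called over all genes tested were 1.82% higher and 1.69% lower. In these 231 genes WT replicate 3 was the highest liver in 16.5%, against 17.8% of all genes tested. Of 288 tested genes with the unfolded protein response element, 7 were called higher and 2 lower by limma, with a median of 0.01. WT replicate 3 was the highest liver in 24.3% of these 288, against the same 17.8%.

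ER-associated degradation, which retrieves misfolded proteins for the proteasome, had 0 of 21 genes called in limma, against 3.51% of all genes tested. An unadjusted p under 0.05 was reached by 3, against 18.4% of all genes tested, and the median was 0.05. Vcp, the ATPase that extracts misfolded proteins, had signals of 538, 474 and 522 in LKO livers, against 515, 487 and 590.4 in WT livers. Its log2 fold change was -0.05.

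Sensors, eIF2α kinases, phosphatase subunits and eIF2B had 0 of 21 genes called in limma, against 3.51% of all genes tested. An unadjusted p under 0.05 was reached by 4, against 18.4% of all genes tested, and the median was 0.05. Creb3l3, a liver transcription factor released from the ER membrane, averaged 304 ± 48.6 in LKO and 365 ± 5.56 in WT (SD, n = 3 each), a log2 fold change of -0.28. Ppp1r15b, a phosphatase subunit that reverses eIF2α phosphorylation, had a log2 fold change of 0.17. The heads of the 3 branches were looked up after other values were seen. Ern1 had a log2 fold change of 0.44 (adjusted p in limma 0.147), Atf6 had 0.32 (0.206) and Eif2ak3 had -0.10 (0.866).

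Translocation and early secretion genes, reported targets of Xbp1, had 0 of 32 called in limma, against 3.51% of all genes tested. An unadjusted p under 0.05 was reached by 5, against 18.4% of all genes tested, and the median was 0.003. Srpr, the receptor for the signal recognition particle, had a log2 fold change of 0.22. Ssr3, a subunit of the translocon-associated complex, had -0.15. Without WT replicate 3 the median of this list was 0.09.

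Of 23 tested other Atf4 targets 1 rose, 1 fell and 21 did not pass, with a median of 0.11, or 0.18 without WT replicate 3. That is 8.7% called, against 3.51% of all genes tested. Slc38a2, a neutral amino acid transporter gene, had signals of 533, 458 and 436 in LKO livers, against 334, 232 and 268 in WT livers. All LKO livers were above all WT livers, and the log2 fold change was 0.79 (SE 0.15, adjusted p in limma 0.0215). Fgf21, a fasting hormone gene that also answers to PPARα, had 1.85, 1.64 and 2.23 in LKO livers, against 3.91, 5.30 and 5.97 in WT livers. Its log2 fold change was -1.05 (SE 0.22, adjusted p in limma 0.0322), so among these targets the genes called moved in opposite directions.

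Both calls in this list were lost in some fits with a liver left out. Slc38a2 was not called without LKO replicate 2 or 3 or WT replicate 2 or 3, with adjusted p in limma of up to 0.0803 and log2 fold changes of 0.66 to 0.93 over the 6 fits. Fgf21 kept its call only without WT replicate 1, with log2 fold changes of -1.19 to -0.94. It was also not called without LKO replicate 1, where 540 of all genes tested were called. The cause of the lost calls was not tested. For both genes the groups do not overlap, as for 24.2% of all genes tested. Neither could therefore turn sign with a liver left out, so the kept sign adds no evidence.

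Of 20 cytosolic tRNA synthetase genes, many of them reported Atf4 targets, 1 rose, 0 fell and 19 did not pass, with a median of 0.09. That is 5% called, against 3.51% of all genes tested. Qars, which charges glutamine, had signals of 55.9, 56.6 and 49.4 in LKO livers, against 36.6, 40.0 and 37.2 in WT livers. Its log2 fold change was 0.50 (SE 0.11, adjusted p in limma 0.045), and the call was kept in 6 of 15 alternatives. It was lost when any 1 liver was left out, at log2 fold changes of 0.46 to 0.56. Those fits called 167 to 540 of all genes tested, against 392 with all livers. The call was also lost with the replicate block (adjusted p in limma 0.0639), library size alone (0.102) and no mean-variance trend (0.101).

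Chaperones of the cytosol and mitochondria had 0 of 17 genes called in limma, against 3.51% of all genes tested. An unadjusted p under 0.05 was reached by 6, against 18.4% of all genes tested. All 6 had negative log2 fold changes, from -1.20 to -0.31. The median was -0.18, with 14 of the 17 values negative. Hspa8 and Hsp90ab1, named for their high mean signal, were not among the genes at an unadjusted p under 0.05. Hspa8, the constitutive Hsp70 of the cytosol, averaged 1496 ± 158 in LKO and 1347 ± 115 in WT (SD, n = 3 each), a log2 fold change of 0.15. Hsp90ab1, a cytosolic Hsp90, averaged 1070 ± 81.9 in LKO and 1213 ± 146 in WT, a log2 fold change of -0.18. WT replicate 3 was the highest liver in 6 of the 17, or 35.3%, against 17.8% of all genes tested.

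**Figure D4:**
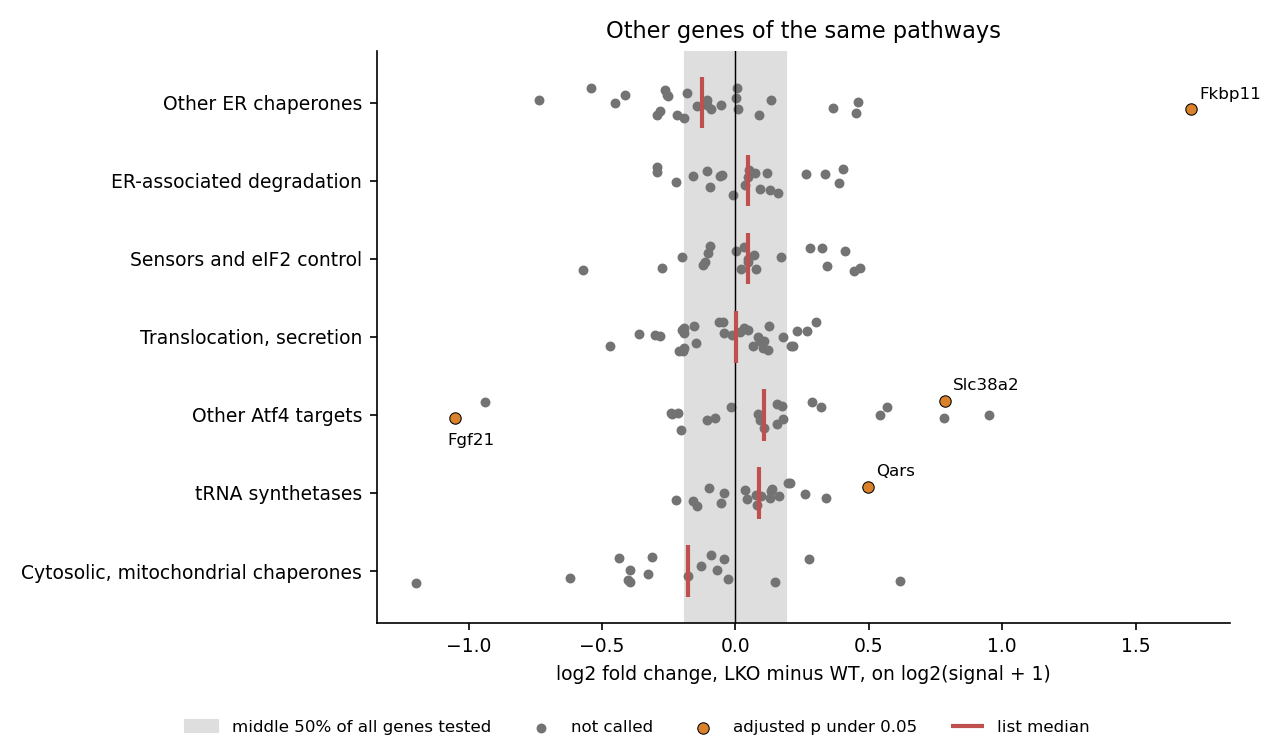
Log2 fold change of each tested gene (points) in the 7 pathway lists, LKO minus WT, on the log2(signal + 1) scale (x axis); vertical jitter has no meaning. Red lines are list medians, from -0.18 to 0.11, and the band holds the middle 50% of all genes tested. Fkbp11, Slc38a2, Qars and Fgf21 are the 4 genes with an adjusted p under 0.05.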

How the data were processed

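RNA was measured in 6 whole livers, 3 LKO and 3 WT. Build mm10 and, without role or order, RSEM 1.2.22, STAR 2.5.1, edgeR, Trimmomatic 0.36, bcl2fastq 2.17 and Picard 1.84 stand in the submitters' processing notes. The authors deposited 1 expression signal per gene and liver, whose unit the headers leave out. Every positive signal below 30 is a whole number of hundredths of a library's value of 1 read, within 0.05 of a hundredth. Between 82.0% and 83.1% of positive values are whole reads within 0.005 of a read, too few for count models. A signal of 3 reads was 0.331 to 0.447. Read intervals cover counting error only.

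Genes with a mean signal of at least 1 entered limma 3.58.1 in R 4.3.3, on log2(signal + 1), with a mean-variance trend, two-sided tests and Benjamini-Hochberg adjustment over 11168 genes. The log2(signal + 1) scale understates changes of low genes. The code was tested on simulated data. Coordinates came from GENCODE M21, promoters from RefSeq (GRCm38.p6), with windows for all 10 members. The members and lists were chosen with earlier results of these data known. All members were named. Each pathway list gave up to 4 called genes with the smallest p, or the 2 highest where none was called. Some genes of these lists are not reported here. Marker lists are given as sums. Lists of cholangiocyte, lymphocyte, neutrophil, stellate and pancreatic markers were also summed. Stellate sums were 160.2 to 189 in LKO and 146 to 165 in WT. Cholangiocyte sums were 24.7 to 58.4 in LKO and 16.3 to 40.5 in WT. T and NK cell sums, nearly all from Cd4, were 4.32 to 7.52 in LKO and 0.883 to 2.34 in WT. Neutrophil sums were 0.223 to 0.298 in LKO and 0.126 to 0.331 in WT, over 2 genes. The pancreatic list rested on Cela1, at 19.2 to 30.7 in LKO and 9.61 to 21.2 in WT.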

Additional observations from a re-analysis of the deposited data

How the results depend on the processing

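The 15 alternatives were no filter, a mean signal of at least 5, library size alone, RLE factors, pseudocounts of 0.1 and 5, no mean-variance trend, limma-voom, a replicate block and leaving out each liver. No member was called lower in any of them, and 0 to 1 was called higher with a liver left out, the 1 being Asns without WT replicate 2. With a mean signal of at least 5, Ddit3 was not tested, the Atf4-arm median was 0.48 and the difference between the arms was -0.68. Over the fits with a liver left out, Hsp90b1 ranged from -0.31 to 0.03 and Xbp1 from -0.14 to 0.13. Hsp90b1 turned to 0.028 without WT replicate 3, and Xbp1 to 0.13 without it and 0.11 without LKO replicate 3. No other member turned sign. Of the pathway list genes 4 were called in the main fit, and only Fkbp11 was called in all 15 alternatives. A mean signal of at least 5, limma-voom and the replicate block each called 3. Library size alone called 2, Fgf21 and Fkbp11, as did the fit without the trend. With a liver left out 1 to 8 were called. The 8, without LKO replicate 1, were Fkbp11 and Slc38a2, higher in LKO, and Derl3, Pdia3, Sdf2l1, Hspb1, Sec11a and Vldlr. With all livers these last genes had log2 fold changes of -0.29, -0.45, -0.74, -1.20, -0.47 and -0.94. In that fit 540 of 11165 genes tested were called, against 392 of 11168 with all livers. Derl3 had a signal of 17.4 in LKO replicate 1, and 0.893 and 0.668 in LKO replicates 2 and 3. Its WT signals were 3.28 to 4.09. The 1 was Fkbp11 without LKO replicate 2 or 3 or WT replicate 2 or 3. In those fits fewer of all genes tested were called than with all livers. The count of list genes called was chosen after seeing the data, and the cause of its changes was not tested.

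LKO and WT replicates carry the same numbers, and the labels used here do not say whether a number marks a pair or a batch. Deviations of same-numbered livers correlated at 0.05, 0.03 and 0.05 across genes. Livers of different number correlated at -0.06 to 0.002, so each liver correlated best with its own number. With the replicate block 0 members were called, with adjusted p in limma of 0.0591 for Atf4 and 0.0627 for Asns, and 3 list genes (Qars was lost) and 416 genes in all were called, against 4 and 392 without it. Ddit3, Asns and Trib3 rest on 9 to 99 estimated reads per liver.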
